A study of Homo sapiens with 27 samples.

Results

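The genes described here are the MYC family and the repressors and partners that share its DNA site: MYC, MYCN, MYCL, MXD1, MXD3, MXD4, MXI1, MNT, MGA and MLX. They were taken by name, as the rows that carry these 10 symbols among the 27546 symbols listed in at least 1 of 3 tables of read counts. No filter on measured values set the list, but it was drawn up with earlier results of these data known. All 10 symbols were listed for 22Rv1 and PC3 and 9 for DU145, where MYCN is not analysed here. RNA was sequenced in 27 libraries, 9 from each of 22Rv1, DU145 and PC3, which are established lines of human prostate cancer cells. In every line 3 libraries came from cells labelled WT that carried control gRNA 1, and 3 came from each of 2 cell populations labelled RIPK2 knockout, so all cells compared carried a guide RNA. The knockout guides were gRNA 1 and gRNA 10 in 22Rv1, and gRNA 2 and gRNA 10 in DU145 and in PC3. Whether a population was a clone or a pool and which sequences the guides had are not given in the labels, and neither is whether the 3 replicates were separate cultures, so the p-values measure the spread between libraries, which may be technical.

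MYC proteins bind the sequence CACGTG, called the E-box, as pairs with MAX, and are known to raise transcription of genes for ribosome production, nucleotide synthesis and the cell cycle. MXD1, MXD3, MXD4, MXI1 (also called MXD2) and MNT compete with MYC for MAX and recruit the SIN3 corepressor with its histone deacetylases. MGA pairs with MAX and joins a Polycomb complex (PRC1.6) that silences germline genes, and MLX is the MAX-like partner of the glucose-sensing factors MondoA (encoded by MLXIP) and ChREBP (encoded by MLXIPL). RIPK2 is the kinase that relays signals from the NOD receptors of bacterial cell wall fragments.

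The libraries held 17958558 to 20650819 counts. The RIPK2 mRNA was lower in 5 of the 6 knockout groups, at 52.0% and 32.2% of the control mean with gRNA 1 and gRNA 10 in 22Rv1, 27.9% with gRNA 2 in DU145, and 34.2% and 45.1% with gRNA 2 and gRNA 10 in PC3. With gRNA 10 in DU145 it was at 81.9% and was not called (log2 change −0.29, adjusted p = 0.0614, edgeR quasi-likelihood test with Benjamini-Hochberg adjustment over all genes of the line, as for every adjusted p here), the smallest drop of the 6 groups. It passed without any 1 of the gRNA 2 libraries (0.014 to 0.0311), with DESeq2 (0.0454) and when only the libraries compared were fitted (0.000576). A frameshift need not lower the mRNA, and protein is not analysed here. In 2 groups the third library was unlike the other 2: gRNA 1 of 22Rv1, with 16.7% of counts from mitochondrial genes against 2.10% and 1.92% in the others, and gRNA 2 of DU145, with 2.89% against 1.75% and 2.12%. Members' changes in these groups are given with and without them. In CPM (counts relative to library size, TMM-scaled within a line), the summed level of 5 epithelial markers was 827 to 1078 in 22Rv1, 892 to 3063 in DU145 and 1213 to 2556 in PC3, while leukocyte marker sums stayed at or below 3.27 CPM. The part of these marker differences in the results was not tested.

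Of the 10 genes, 9 matched 13 promoter windows of RefSeq (GRCh38.p14), each running from 250 bases before to 50 bases after a transcription start, and MYC was not matched. The E-box CACGTG, which reads the same on both strands, was found in 3 of these windows and in 2548 of all 35116 windows (7.26%). The windows that held it belonged to MXD4, MNT and MLX, and are shown to place the network's own DNA site in its members. The 3 genes had no common pattern: in PC3 all were lower with gRNA 2, as were MXD1 and MXI1, whose windows lack the motif, and with gRNA 10 MNT was lower, MLX higher and MXD4 not called. Each stretch is the portion of the window upstream of the annotated gene, written 5′ to 3′ on the gene's strand, with the E-box in capitals. The match describes the letters of the window and was not tested for binding.
MXD4, chr4:2262295-2262359, minus strand: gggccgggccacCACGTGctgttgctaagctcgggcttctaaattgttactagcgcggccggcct
MNT, chr17:2401119-2401310, minus strand: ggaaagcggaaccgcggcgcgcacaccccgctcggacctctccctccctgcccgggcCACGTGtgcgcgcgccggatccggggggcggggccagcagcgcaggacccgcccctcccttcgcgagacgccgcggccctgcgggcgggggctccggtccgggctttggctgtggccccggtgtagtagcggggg
MLX, chr17:42566850-42567067, plus strand: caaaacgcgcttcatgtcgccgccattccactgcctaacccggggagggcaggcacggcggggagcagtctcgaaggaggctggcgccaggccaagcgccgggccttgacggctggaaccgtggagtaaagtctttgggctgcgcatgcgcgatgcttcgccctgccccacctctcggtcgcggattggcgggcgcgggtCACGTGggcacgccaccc

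In GENCODE 29 (GRCh38) the other members lie at chr1:39895426-39902256 (MYCL, minus strand), chr2:15940564-15947007 (MYCN, plus), chr2:69897688-69942945 (MXD1, plus), chr5:177301461-177312757 (MXD3, minus), chr10:110207605-110287365 (MXI1, plus) and chr15:41621224-41773081 (MGA, plus). MXD4 spans chr4:2247432-2262294, MNT chr17:2384060-2401118 and MLX chr17:42567068-42573239. MYC spans chr8:127735434-127741434 (plus strand), on the same chromosome as the targeted gene RIPK2 at chr8:89757747-89791063 (plus). Whether the populations differed in copies of chromosome 8 was not tested. All values are sums over exons of a whole gene. MXD1 shares bases with SNRNP27, MXD3 with RAB24 and MXD4 with MIR4800 on the same strand. On the other strand MYCN shares bases with MYCNOS, MXD3 with PRELID1 and MLX with PSMC3IP. So do MYCL with AL033527.2, MXI1 with AL360182.2, MNT with AC006435.1, MGA with AC073657.1 and the partner MAX with AL139022.1. The strand setting of the counting is not given in the sources used here, so reads in those stretches cannot be assigned with certainty.

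The makeup of the network differed between the 3 lines before any knockout. Levels were compared between genes as RPKM, the CPM scaled over all lines and divided by the kilobases in the union of a gene's exons. MYC was the highest member in every control, at 128 ± 10.3 RPKM (SD, n = 3) in 22Rv1, 27.5 ± 1.14 in DU145 and 71.6 ± 2.65 in PC3. It was followed in 22Rv1 by MLX at 23, MXI1 at 15.9 and MXD3 at 8.43 RPKM, then by MNT, MGA and MXD4 between 5.11 and 5.55, whose libraries overlapped, and by MXD1 at 3.18. DU145 ordered its members as MLX at 20.7, MXD4 at 14.2 and MXI1 at 6.29 RPKM, with MNT, MGA and MXD3 overlapping at 2.82 to 2.87 and MXD1 at 0.862. For PC3 the order was MXD4 at 15.2, MLX at 12.4, MXI1 at 5.72, MXD3 and MNT overlapping at 4.94 and 4.82, and MGA and MXD1 overlapping at 1.78 and 1.6 RPKM. MYCL was low throughout, at 1.42, 1.48 and 0.251 RPKM, and MYCN was at 0.200 RPKM in 22Rv1 and listed at 0 in all 3 control libraries of PC3.

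**Figure D1:**
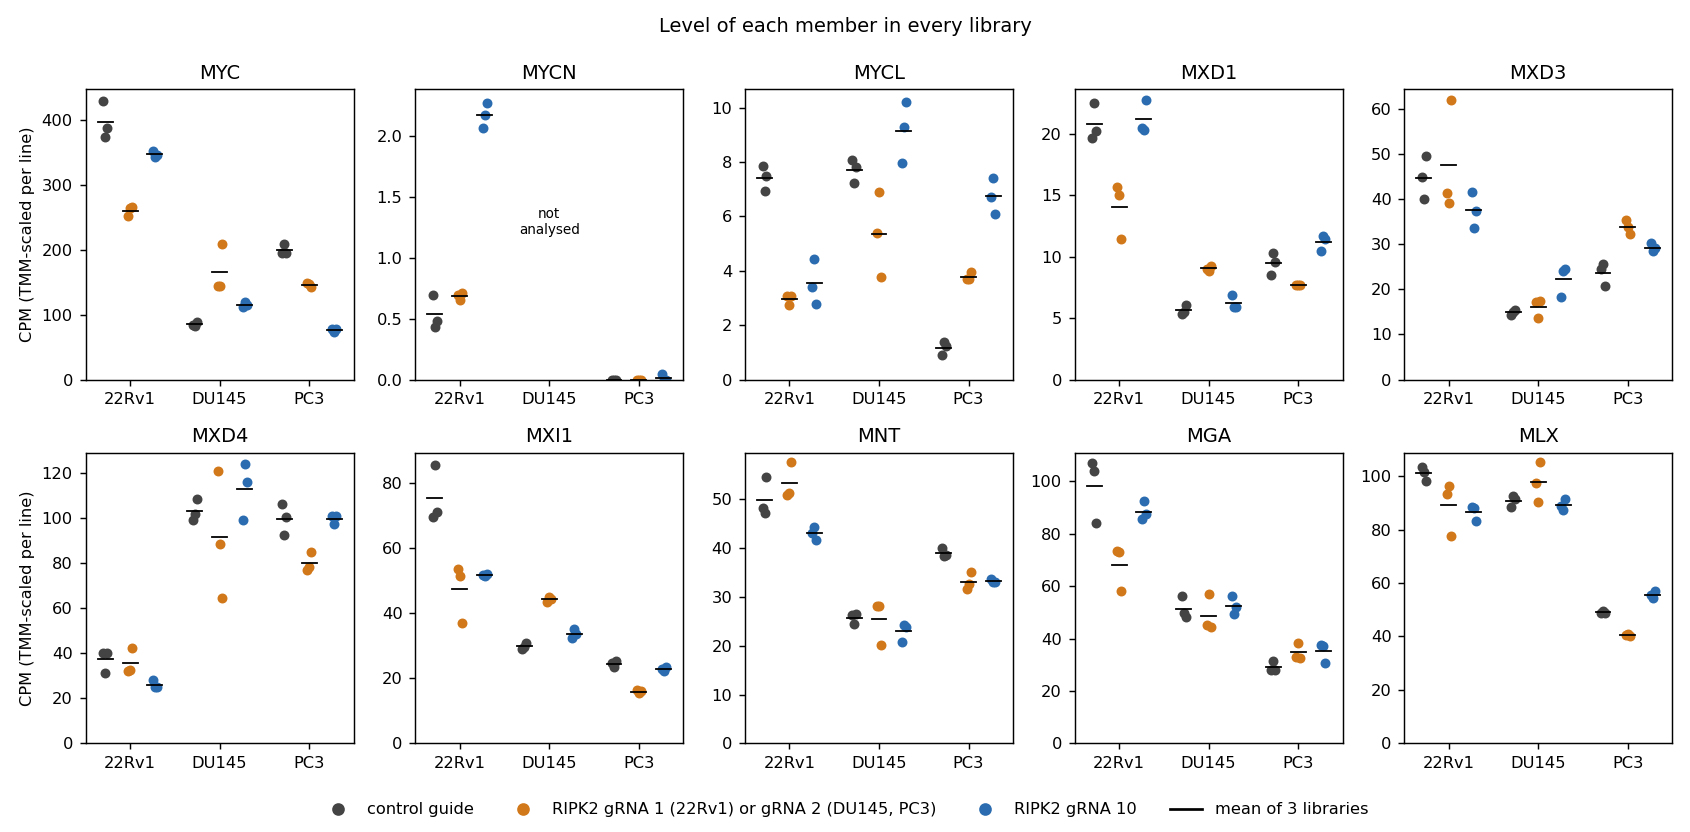
Level of each member in CPM (linear axis) in each of the 27 libraries, by line and guide, with a bar at the mean of each group of 3. In the controls MYC lies between 374 and 429 in 22Rv1, between 81.8 and 88.7 in DU145 and between 195 and 208 in PC3.

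Which repressor was most abundant also depended on the line. MXI1 made up 41.6% and MXD3 22.1% of the summed RPKM of the 5 MAX-binding repressors MXD1, MXD3, MXD4, MXI1 and MNT in 22Rv1 control cells. MXD4 made up the most in the other lines, 52.4% in DU145 and 47.0% in PC3, with MXI1 at 23.3% and 17.7%. In a model of all 27 libraries, MXD4 was lower in 22Rv1 than in DU145 by a log2 difference of −1.47 ± 0.15 (SE, adjusted p = 1.65e-09) and than in PC3 by −1.57 ± 0.15 (adjusted p = 3.89e-10), while MXI1 was higher by 1.34 ± 0.10 (2.96e-12) and 1.47 ± 0.10 (3.66e-13, adjusted p). MYCL mRNA was 2.50 ± 0.21 (log2) higher in 22Rv1 and 2.55 ± 0.21 higher in DU145 than in PC3, with adjusted p-values of 2.48e-11 and 1.84e-11. Differences passed the test for 7 of 9 members between 22Rv1 and DU145, 8 of 9 between 22Rv1 and PC3 and 7 of 9 between DU145 and PC3. Among all 16322 genes of that model 75.9%, 80.5% and 75.9% passed, so the members' counts lie near the background.

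Knockout and control differed in members of all 3 lines, with signs that varied by line and guide. In 22Rv1, 5 of 10 members were lower with gRNA 1 (MYC, MYCL, MXD1, MXI1 and MGA) and none was higher, where 48.5% of all genes were called, 25.6% higher and 22.9% lower. With gRNA 10, MYCL, MXD4 and MXI1 were lower and MYCN was higher, where 40.6% of all genes were called, 20% higher and 20.6% lower. Without the third gRNA 1 library the first count stayed at 5 lower members, and the second became 7 lower, with MYC, MXD3, MNT and MLX added. The shares of all genes in this paragraph are those with all libraries of a line in the fit. In DU145, MYC, MXD1 and MXI1 were higher with gRNA 2, 3 of 9 members, and none was lower, where 34% of all genes were called, 17.1% higher and 17% lower. MYC and MXD3 were higher with gRNA 10 and none was lower, where 40% of all genes were called, 20.2% higher and 19.8% lower. Without the third gRNA 2 library, MXI1 was also called higher with gRNA 10. Without any 1 library of the control or of gRNA 10, the member called with gRNA 10 was MXD3 alone. In PC3 all 9 tested members changed with gRNA 2, 3 higher and 6 lower, against 63.6% of all genes (32.1% higher, 31.5% lower). With gRNA 10, 7 of 9 changed, 5 higher and 2 lower, against 73.5% of all genes (37.9% higher, 35.6% lower).

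The median log2 change of the tested members was −0.36 and −0.22 for gRNA 1 and gRNA 10 in 22Rv1, 0.10 and 0.15 for gRNA 2 and gRNA 10 in DU145, and −0.27 and 0.18 in PC3. Over all genes these medians lay between −5.6e-06 and 0.024. The libraries of a knockout group did not overlap those of the control for 6 and 7 of 10 members in 22Rv1, 4 and 4 of 9 in DU145, and 9 and 7 of 9 in PC3, where all genes gave 55.7% and 64.2%, 46.6% and 68.6%, and 67.6% and 74.8%. With both guides of a line in one direction, MYCL and MXI1 were lower in 22Rv1, MYC was higher in DU145, and in PC3 MYCL, MXD3 and MGA were higher and MYC and MNT lower. Both guides of a line share their control libraries. Directly compared, the 2 guides differed in 6 of 10 members in 22Rv1, 5 of 9 in DU145 and 7 of 9 in PC3, where 35.6%, 38.8% and 73.4% of all genes differed. Those counts became 3 without the second or the third gRNA 10 library of 22Rv1 and 3 without the third gRNA 10 library of DU145. The shares of all genes are those with all libraries in the fit.

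**Figure D2:**
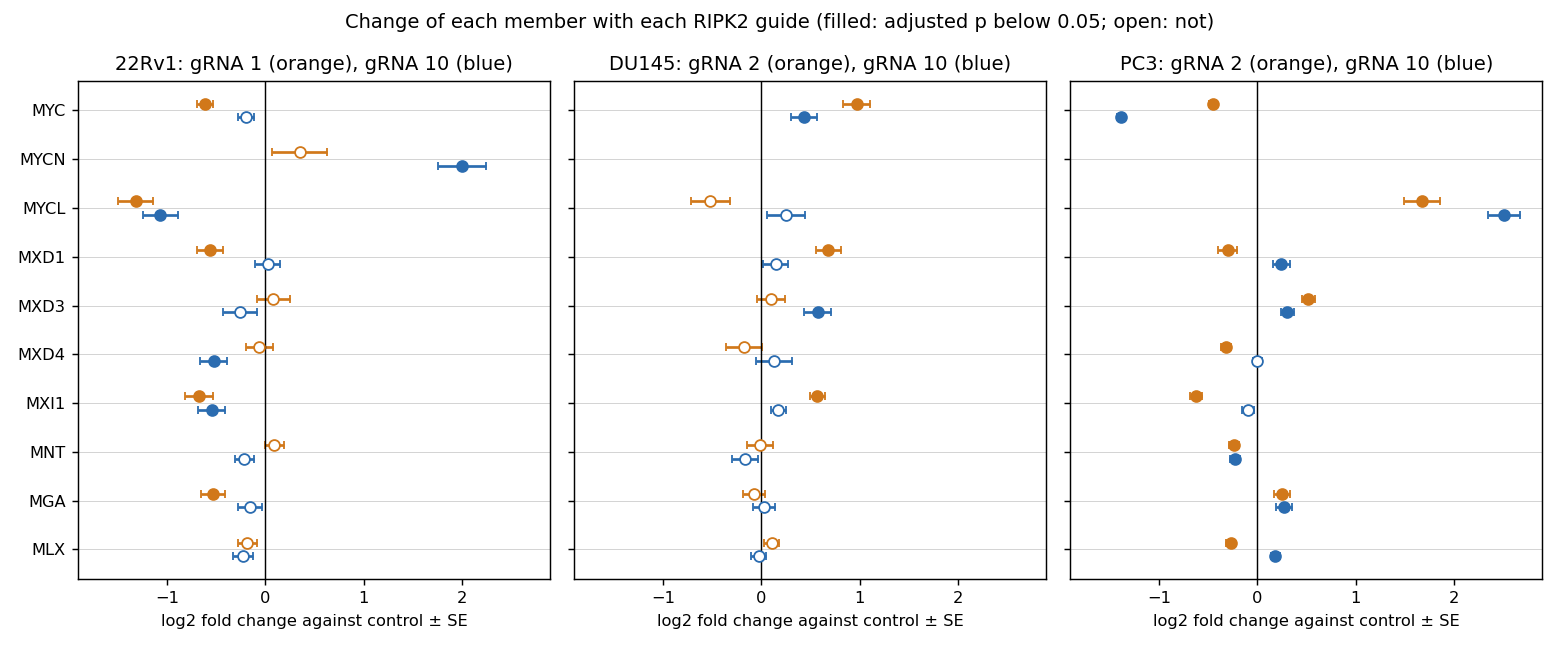
Change of each member in log2 units (x axis) for each knockout guide against the control of its line, with bars of 1 standard error and filled points where the adjusted p is below 0.05. MYC lies below 0 in 22Rv1 and PC3 and above 0 in DU145, and MYCL is called below 0 in 22Rv1 and above 0 in PC3.

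MYC, the most widely expressed member of the family, was measured in the 22Rv1 controls at 429, 374 and 388 CPM, with gRNA 1 at 252, 264 and 265, and with gRNA 10 at 352, 343 and 346. The DU145 libraries gave 84.0, 81.8 and 88.7 CPM in the control, 145, 145 and 210 with gRNA 2, and 111, 119 and 114 with gRNA 10. PC3 gave 195, 208 and 195 CPM in the control, 149, 147 and 142 with gRNA 2, and 77.4, 72.6 and 78.6 with gRNA 10. In each of the 6 comparisons every knockout library lay on one side of every control library, below them in 22Rv1 and PC3 and above them in DU145. The high value of the third library with gRNA 2 in DU145 is from the library unlike its replicates. As these are bulk samples, fewer cells with high MYC and less MYC RNA per cell cannot be told apart.

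The change in MYC was −0.61 ± 0.08 (log2, SE, adjusted p = 0.000154) with gRNA 1 in 22Rv1 and 0.97 ± 0.13 (0.000485) with gRNA 2 in DU145, or −0.63 and 0.77 without the library that stands apart. With gRNA 10 in DU145 it was 0.44 ± 0.13 (adjusted p = 0.0239), a call that was lost in 6 of the fits that leave out 1 library, with adjusted p-values of 0.0536 to 0.0854. In 22Rv1 gRNA 10 gave −0.19 ± 0.08, which did not pass (0.0771) and did so without the third gRNA 1 library (0.0195), without the second control library (0.0367), when only the 6 libraries compared were fitted (0.0316) or with DESeq2 (0.0415). PC3 showed −0.45 ± 0.04 (2.5e-11) and −1.39 ± 0.04 (4.32e-23). The guides of a line differed in MYC from each other in all 3 lines, by −0.41, 0.53 and 0.94 for the first guide against gRNA 10, and all 3 differences passed the test.

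MYCL, the family member first found in lung cancer, moved in opposite directions in 22Rv1 and PC3. Control libraries of 22Rv1 held 7.84, 6.94 and 7.5 CPM, those with gRNA 1 held 3.09, 2.76 and 3.09, and those with gRNA 10 held 3.41, 4.44 and 2.78. PC3 libraries held 0.899, 1.39 and 1.24 CPM with the control guide, 3.70, 3.70 and 3.95 with gRNA 2, and 6.72, 7.41 and 6.10 with gRNA 10. All knockout libraries lay below the controls in 22Rv1 and above them in PC3, and in PC3 those of gRNA 10 were the highest. The log2 changes were −1.32 ± 0.18 (adjusted p = 0.000193, and −1.35 without the third gRNA 1 library) and −1.07 ± 0.18 (0.00073) in 22Rv1, and 1.68 ± 0.18 (2.28e-09) and 2.51 ± 0.16 (8.36e-15) in PC3. MYCL in DU145 lay at 8.07, 7.24 and 7.81 CPM in the control, 5.41, 6.92 and 3.76 with gRNA 2, and 7.96, 9.28 and 10.2 with gRNA 10. The gRNA 2 libraries lay below the controls and the gRNA 10 libraries overlapped them; neither change passed the test (−0.52 and 0.25, adjusted p = 0.069 and 0.336), though the first did without the second gRNA 2 library (0.012) and with DESeq2 (0.0451). Without the third gRNA 2 library it was −0.32 (0.0831).

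MYCN, the family member amplified in neuroblastoma and in neuroendocrine prostate tumours, was near the limit of detection. In 22Rv1 it had 13, 8 and 9 counts in the controls, 13, 12 and 12 with gRNA 1, and 40, 42 and 44 with gRNA 10. The gRNA 10 libraries lay above all others, by 2.00 ± 0.25 on the log2 scale against the control (adjusted p = 9.18e-05) and with −1.65 ± 0.24 for gRNA 1 against gRNA 10. Against the control gRNA 1 gave 0.35 and did not pass (0.408), and without the third gRNA 1 library it gave 0.31 (0.512). MYCN passed the filter on low counts, whose minimum was reached by 1 control library, all 3 of gRNA 1 and all 3 of gRNA 10. In PC3 there was a single count in 1 of 9 libraries, and it was not tested.

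MXI1 and MXD1, MAX-binding repressors of which MXD1 is known to rise as cells differentiate, changed in the same direction as MYC with the first guide of each line. MXI1 lay at 69.7, 85.6 and 71.1 CPM in the 22Rv1 controls, 53.7, 51.5 and 36.9 with gRNA 1, and 51.6, 51.3 and 52.1 with gRNA 10. All 6 knockout libraries were lower than the controls, the lowest being the third gRNA 1 library, and the log2 changes were −0.67 ± 0.14 (adjusted p = 0.00285, and −0.53 without that library) and −0.55 ± 0.14 (0.00997). DU145 showed 29, 29.6 and 30.9 CPM of MXI1 in the control, 43.5, 45.1 and 44.5 with gRNA 2, and 32.3, 35.1 and 33.5 with gRNA 10. The gRNA 2 libraries stood above all others with 0.57 ± 0.08 (0.000463), and the same value without the third of them, while gRNA 10 gave 0.17 ± 0.08 (0.103, and 0.0443 without the third gRNA 2 library). PC3 libraries held 24.8, 23.5 and 25.1 CPM of MXI1, then 16.3, 15.4 and 16.1 with gRNA 2 and 22.8, 22.3 and 23.5 with gRNA 10. With gRNA 2 they were lower by −0.62 ± 0.06 (8.5e-10), and with gRNA 10 the change of −0.10 ± 0.06 did not pass (0.149).

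MXD1 had the same signs as MXI1 with these first guides. In 22Rv1 it lay at 19.7, 22.5 and 20.3 CPM in the control, 15.7, 15 and 11.5 with gRNA 1, and 20.5, 20.3 and 22.8 with gRNA 10. The gRNA 1 libraries were below the others (−0.56 ± 0.13, adjusted p = 0.00499, or −0.45 without the third), and the gRNA 10 libraries overlapped the controls (0.02). DU145 libraries held 5.33, 5.47 and 6.10 CPM of MXD1, then 9.03, 8.87 and 9.24 with gRNA 2 and 6.85, 5.94 and 5.91 with gRNA 10. Those of gRNA 2 were higher, by 0.68 ± 0.13 (0.00245, and 0.67 without the third), and those of gRNA 10 overlapped the control (0.15, 0.393). In PC3 MXD1 differed in sign between the guides, −0.30 ± 0.10 with gRNA 2 (0.00734) and 0.25 ± 0.09 with gRNA 10 (0.0147). The first call was lost without the second control library (adjusted p = 0.0554), and the second without the first control library (0.112), without the second gRNA 10 library (0.0556) or with DESeq2 (0.0613).

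MXD3, the MXD repressor expressed in dividing cells, changed in DU145 and PC3. Its PC3 levels were 24.6, 25.7 and 20.7 CPM in the control, 35.4, 33.8 and 32.4 with gRNA 2, and 30.2, 28.5 and 29.1 with gRNA 10. Both knockout groups lay above the controls, by 0.52 ± 0.07 (adjusted p = 4.63e-08) and 0.31 ± 0.07 (0.000146) on the log2 scale. In DU145 MXD3 was at 14.4, 15.1 and 15.5 CPM in the control, 17.3, 13.5 and 17.4 with gRNA 2, and 18.4, 24.0 and 24.5 with gRNA 10. Only the gRNA 10 libraries stood clear of the controls, by 0.57 ± 0.14 (0.00795), and gRNA 2 gave 0.10, or 0.04 without the third gRNA 2 library. The 22Rv1 groups overlapped, with changes of 0.08 and −0.25 that did not pass (0.703 and 0.26), and without the third gRNA 1 library they were −0.16 (0.239) and −0.25 (0.0459).

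MXD4, a repressor linked to differentiated cells, fell with 1 guide in each of 22Rv1 and PC3. In 22Rv1 it held 40.1, 31.3 and 40.1 CPM in the control, 32.2, 32.7 and 42.1 with gRNA 1, and 27.9, 24.9 and 24.9 with gRNA 10. The gRNA 10 libraries lay below all others (−0.52 ± 0.14, adjusted p = 0.011), and those of gRNA 1 overlapped the control (−0.06, 0.733, or −0.21, 0.145, without the third). PC3 libraries held 106, 92.3 and 100.3 CPM of MXD4, then 76.6, 78.2 and 84.6 with gRNA 2 and 101, 97.1 and 101 with gRNA 10. Again 1 guide was lower, here gRNA 2 with −0.32 ± 0.05 (1.16e-06), and the other overlapped the control (adjusted p = 0.985). In DU145 MXD4 spread widely with gRNA 2, at 121, 88.5 and 64.6 CPM against 99.1 to 108 in the control, and did not pass with either guide (0.503 and 0.597); without the first gRNA 2 library it passed as lower (0.047), and without the third it was 0.03 (0.86).

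MNT, the repressor expressed in both resting and dividing cells, was lower in PC3 with both guides. It lay at 40.1, 38.3 and 38.6 CPM in the control, 31.6, 32.6 and 35.0 with gRNA 2, and 33.8, 33.1 and 33.1 with gRNA 10. The groups did not overlap, and the log2 changes of −0.24 ± 0.05 (adjusted p = 0.000276) and −0.23 ± 0.05 (0.000324) were alike in size. MNT ranged from 41.7 to 57.6 CPM in 22Rv1 and from 20.1 to 28.2 CPM in DU145 over all 9 libraries and did not pass in either line (adjusted p from 0.0981 to 0.939); without the third gRNA 1 library of 22Rv1, gRNA 10 passed there with −0.21 (0.0336) and gRNA 1 gave 0.02. Without the third gRNA 2 library of DU145, MNT was 0.13 (0.239) with gRNA 2.

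MGA, the largest protein of the network and the scaffold of PRC1.6, was lower in 22Rv1 with gRNA 1 and slightly higher in PC3 with both guides. In 22Rv1 it was at 107, 104 and 84.0 CPM in the control, 73.3, 73.0 and 58.1 with gRNA 1, and 85.6, 92.5 and 87.5 with gRNA 10. The gRNA 1 libraries lay below the others, with −0.53 ± 0.12 (adjusted p = 0.00486) or −0.44 without the third, and those of gRNA 10 overlapped the control (−0.15, 0.349). PC3 libraries held 28.0, 31.4 and 27.9 CPM of MGA, then 33.1, 38.3 and 32.7 with gRNA 2 and 37.4, 37.3 and 30.9 with gRNA 10. The changes were 0.25 ± 0.08 (0.00895; 0.0545 without the second gRNA 2 library) and 0.27 ± 0.08 (0.00417), and 1 library of gRNA 10 overlapped the control. In DU145 MGA stayed between 44.4 and 56.9 CPM in all 9 libraries and did not pass (0.639 and 0.85, with −0.01 for gRNA 2 without the third library).

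MLX, the partner of MondoA and ChREBP, changed by small and opposite amounts in PC3. Its levels there were 48.7, 49.6 and 48.8 CPM in the control, 40.7, 41.0 and 40.3 with gRNA 2, and 55.5, 54.5 and 57.0 with gRNA 10. The gRNA 2 libraries lay below and the gRNA 10 libraries above the control, by −0.27 ± 0.05 (adjusted p = 1.05e-05) and 0.18 ± 0.05 (0.000678). MLX in 22Rv1 lay at 98.3 to 103 CPM in the control and 83.1 to 88.4 with gRNA 10 and did not pass (−0.22 ± 0.10, 0.0887), and passed without the third gRNA 1 library (0.00752) or when only the libraries compared were fitted (0.0169). In DU145 it ranged from 87.2 to 105 CPM and did not pass with either guide (0.325 and 0.807). Without the third libraries MLX was −0.10 with gRNA 1 in 22Rv1 and 0.05 with gRNA 2 in DU145.

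The shared partner MAX, through which MYC and its antagonists reach the E-box, was not constant. MAX lies at chr14:65006174-65102695 (minus strand), and whether its neighbours on the chromosome changed alike was not tested. PC3 held 151, 147 and 144 CPM in the control, 183, 185 and 180 with gRNA 2, and 77.9, 76.1 and 77.4 with gRNA 10. The gRNA 2 libraries lay above the control by 0.31 ± 0.04 (log2, adjusted p = 1.06e-08) and the gRNA 10 libraries below it by −0.93 ± 0.04 (1.57e-19), the lowest of the 3 groups. In DU145 MAX was at 62.9, 58.4 and 58.9 CPM in the control, 78.7, 67.6 and 97.0 with gRNA 2, and 56.7, 51.6 and 55.1 with gRNA 10. It was higher with gRNA 2 by 0.43 ± 0.12 (0.019; 0.29 and 0.0109 without the third library), a call lost without the second (0.0719) or the third (0.0697) control library and when only the libraries compared were fitted (0.0578), and the change with gRNA 10 did not pass (0.379). The 22Rv1 change with gRNA 10, 0.23 ± 0.08 (0.0434), was lost in 8 of the 9 fits that leave out 1 library (0.054 to 0.129) and without a filter on low counts (0.161), and gRNA 1 gave −0.05 (0.655).

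Of the partners of MLX, MLXIP fell with gRNA 10 in 22Rv1 (−0.34 ± 0.09, adjusted p = 0.0115, from 150 to 169 CPM in the control to 124 to 127) and in PC3 (−0.33 ± 0.05, 9.41e-07, from 98.2 to 102 CPM to 74.4 to 84.9). The 22Rv1 call was lost without the first control library (0.0522) or the third gRNA 10 library (0.0548). MLXIPL fell with both guides in DU145, from 17.9, 13.6 and 14.8 CPM in the control to 8.58, 7.65 and 4.09 with gRNA 2 and 8.31, 10.8 and 10.1 with gRNA 10. Every knockout library lay below the controls, with −1.18 ± 0.23 (0.00355; −0.92 without the third gRNA 2 library) and −0.67 ± 0.23 (0.0386); the second call was lost in 6 of the fits that leave out 1 library (0.0559 to 0.139). In PC3 MLXIPL was lower with gRNA 10 (−0.52 ± 0.15, 0.00282). In 22Rv1 it lay at 8.16 to 13.7 CPM in the control and, above all of these, at 14.8 to 14.9 with gRNA 10, a difference of 0.50 that did not pass (0.322) and passed without the third gRNA 1 library (0.51, 0.00994).

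The ratio of MYC to the repressors differed more between groups than the repressors' sum. The summed level of MXD1, MXD3, MXD4, MXI1 and MNT was 38.1 ± 0.75 RPKM (SD, n = 3) in the 22Rv1 control, 31.5 ± 1.41 with gRNA 1 and 30.0 ± 0.99 with gRNA 10. It was 27 ± 1.07, 29.1 ± 4.25 and 30.6 ± 2.87 RPKM in the control, gRNA 2 and gRNA 10 of DU145, and 32.3 ± 1.14, 28.1 ± 0.57 and 32.3 ± 0.48 in PC3. The knockout sums lay below all controls in 22Rv1, and in PC3 with gRNA 2, and overlapped the control in the other 3 groups. MYC divided by this sum was 3.37 ± 0.33 in the 22Rv1 control, 2.64 ± 0.12 with gRNA 1 and 3.80 ± 0.08 with gRNA 10.

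In DU145 the ratio was 1.02 ± 0.02 in the control, 1.90 ± 0.69 with gRNA 2, with single libraries at 1.39, 1.63 and 2.69, and 1.23 ± 0.08 with gRNA 10. The highest of these is the third gRNA 2 library, and all knockout libraries lay above the control. In PC3 it was 2.22 ± 0.15 in the control, 1.85 ± 0.08 with gRNA 2 and 0.837 ± 0.02 with gRNA 10, below 1. As a share of the summed RPKM of the members other than MYCN, MYC made up 65.3%, 59.8% and 67.2% in 22Rv1 (control, gRNA 1, gRNA 10), 34.5%, 49.0% and 40.2% in DU145, and 60.5%, 55.8% and 35.2% in PC3. These ratios are of mRNA, carry no test, and inherit the error of the exon lengths, since the union of exons overstates the length of genes with several isoforms.

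**Figure D3:**
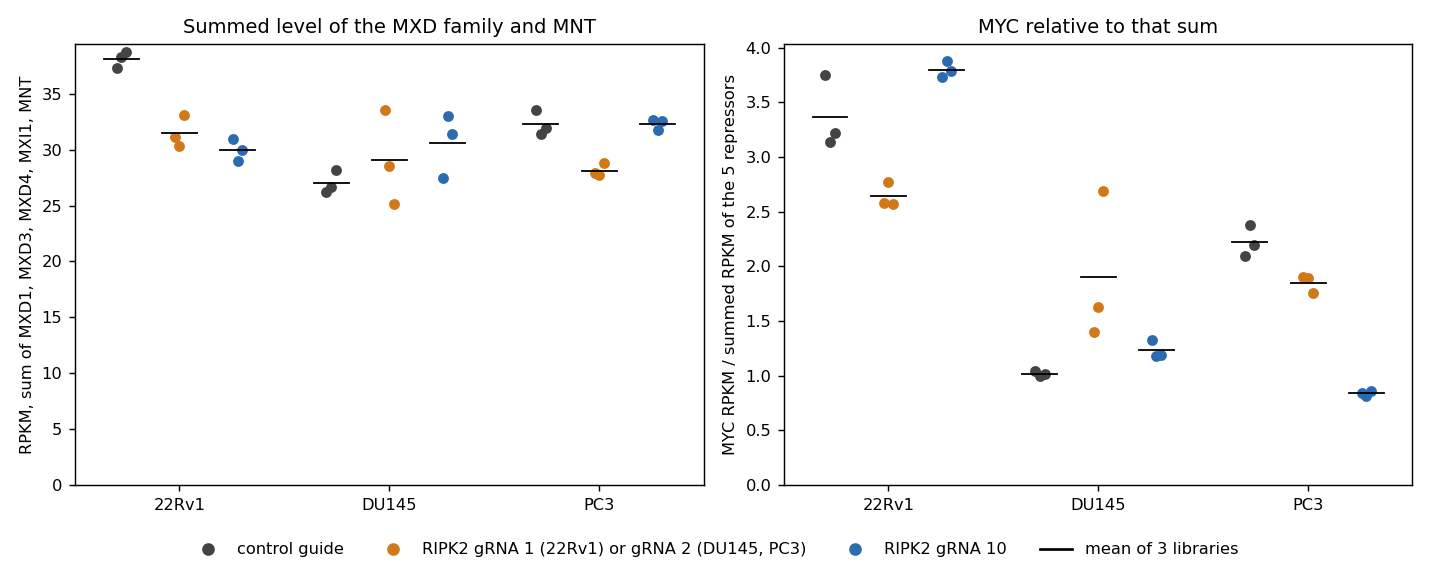
Summed level of MXD1, MXD3, MXD4, MXI1 and MNT in RPKM (left) and MYC divided by that sum (right), 1 point per library with a bar at the mean of each group of 3. The ratio is lowest with gRNA 10 in PC3 (0.837) and spreads from 1.39 to 2.69 with gRNA 2 in DU145.

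Whether a guide's change differed between lines was tested in the model of all 27 libraries. For gRNA 10, the change differed in 5 of 9 members between 22Rv1 and DU145, 5 of 9 between 22Rv1 and PC3 and 2 of 9 between DU145 and PC3, where 44.7%, 47.6% and 48.1% of all genes differed. For gRNA 2 it differed between DU145 and PC3 in 5 of 9 members, against 35.9% of all genes. MYC and MYCL differed in all 4 of these comparisons, and MNT and MGA passed in none of them with all libraries in the model. With both libraries that stand apart left out, the counts became 6, 7, 4 and 8 of 9, MGA then passing for gRNA 10 between 22Rv1 and PC3 (−0.41, adjusted p = 0.0095) and MNT for gRNA 2 between DU145 and PC3 (0.37, 0.00288). The shares of all genes above are those with all libraries in the model. Shares without these libraries are not given here, so the larger counts have no background beside them.

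The genes that MYC is known to activate, a list of 44 for ribosome biogenesis, nucleotide and polyamine synthesis and the cell cycle, changed in both directions in 22Rv1 and PC3. Of 43 tested in 22Rv1, 6 rose and 16 fell with gRNA 1 (median log2 change −0.20), against 25.6% higher and 22.9% lower of all genes, and 9 rose and 10 fell with gRNA 10 (−0.05), against 20% and 20.6%; without the third gRNA 1 library the latter was 9 and 19. Nucleolar genes were on both sides with both guides: NOP2, an rRNA methyltransferase, rose from a mean of 109.97 CPM to 174 and 177 (0.66 and 0.69, the first 0.42 without the third gRNA 1 library) and RRP12, a ribosome export factor, from 87.2 to 121 and 112, while GNL3 (nucleostemin) fell from 257 to 158 and 145 (−0.70 and −0.83) and POLR3G, an RNA polymerase III subunit, from 9.95 to 5.22 and 4.08. The rise of RRP12 with gRNA 10 was lost without the first (0.0623) or second (0.0621) gRNA 10 library. In DU145, where MYC rose, 15 of 44 rose and 1 fell with gRNA 2 (0.35), against 17.1% and 17% of all genes, and 5 rose and 5 fell with gRNA 10 (0.00), against 20.2% and 19.8%. Without the third gRNA 2 library these were 15 and 5, and 8 and 16, and over all alternatives the rises with gRNA 2 numbered 9 to 22. The shares of all genes in this paragraph are those with all libraries of a line in the fit. POLR1B, an RNA polymerase I subunit, rose from 42.6 to 60.5 and 58.4 CPM and PPAT, the first enzyme of purine synthesis, from 38.0 to 50 and 50.8.

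In PC3, 18 of 42 rose and 12 fell with gRNA 2 (0.09), against 32.1% and 31.5% of all genes, and 10 rose and 22 fell with gRNA 10 (−0.18), against 37.9% and 35.6%. Their calls in either direction are thus near the 63.6% and 73.5% of all genes. A total of 10 genes of this list passed in opposite directions with the 2 guides there. The spermidine synthase SRM rose from 189.7 CPM to 327 and 305 (0.79 and 0.69) and E2F2 from 6.34 to 11.7 and 11.4, whereas LDHA, lactate dehydrogenase, fell from 1782 to 1058 and 994 (−0.75 and −0.84) and POLR3G from 99.3 to 41.4 and 44.6. Medians over all genes were between −5.6e-06 and 0.024, as above.

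Among 8 genes that MYC is known to repress, the cell cycle inhibitor CDKN1A (p21) rose with both guides in 22Rv1, from 20.9 CPM to 104 and 127 (2.32 and 2.61, adjusted p = 2.72e-07 and 1.23e-07), and in PC3, from 11.8 to 17.0 and 24.5 (0.53 and 1.05). CDKN1A is also a target of p53. In 22Rv1, 2 of the 8 rose and 3 fell with gRNA 1, where 48.5% of all genes were called. With gRNA 10, 5 rose and 3 fell there, against 40.6% of all genes. ITGB1, an integrin subunit, fell in 22Rv1 with both guides (−0.74 and −0.51). The second call was lost without the second control library (0.0595) or the first gRNA 10 library (0.0578). The tumour suppressor NDRG2 fell in DU145 from 60.8 to 14.2 and 25.6 CPM (−2.10 and −1.25), where 1 rose and 2 fell with gRNA 2 and 2 rose and 2 fell with gRNA 10. Of all genes, 34% and 40% were called with these guides in DU145. GADD45A, a stress response gene, rose there (1.15 and 0.63), and CEBPA fell (−1.69 and −0.52, the second lost without the second gRNA 10 library at 0.0523). In PC3, 5 rose and 3 fell with gRNA 2 and 2 rose and 4 fell with gRNA 10, with NDRG1 down from 405 to 211 and 120.3 CPM. Of all genes, 63.6% and 73.5% were called with these guides in PC3.

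HK2, hexokinase 2, a target of both MYC and MondoA, lay on the same side of the control as MYC in all 6 comparisons, 5 of which passed the test. Its mean went from 152 to 101 and 119 CPM in 22Rv1 (−0.59 and −0.35, adjusted p = 0.00363 and 0.0496), from 32.3 to 66.4 and 39.4 in DU145 (1.04 and 0.29, 0.00516 and 0.323, or 0.65 and 0.29, 1.7e-05 and 0.00332, without the third gRNA 2 library) and from 187 to 109.96 and 54.0 in PC3 (−0.76 and −1.79). The call with gRNA 10 in 22Rv1 was lost in 7 of the 9 fits without 1 library (0.0509 to 0.141). Of the 4 MondoA and MLX targets TXNIP, ARRDC4, HK2 and PFKFB3, 2 and 3 fell and none rose in 22Rv1, 2 and 2 rose and none fell in DU145, and 1 rose in PC3 with each guide while 2 and 3 fell. The share of all genes called was 48.5% and 40.6% in 22Rv1, 34% and 40% in DU145, and 63.6% and 73.5% in PC3. ARRDC4, an arrestin-like protein induced by MondoA, rose in DU145 from 1.75 to 3.03 and 7.91 CPM (0.78 and 2.17), the first of which was lost without the first (0.0957) or the third (0.0886) control library. Its relative TXNIP fell in PC3 by −0.18 and −0.41.

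The counts for the machinery around the network are to be read against the share of all genes called with the 2 guides, 48.5% and 40.6% in 22Rv1, 34% and 40% in DU145, and 63.6% and 73.5% in PC3. Chromosomal positions of the machinery and target genes were not compared, so whether neighbouring genes changed together was not tested. Of 12 members of the SIN3 corepressor, 0 rose and 5 fell with gRNA 1 and 1 rose and 3 fell with gRNA 10 in 22Rv1, with RBBP7, a histone chaperone, at 292, 222 and 233 CPM and the deacetylase HDAC2 at 291, 224 and 235. With gRNA 10 the call of RBBP7 was lost without any 1 of the gRNA 10 libraries (0.0529 to 0.0618) and that of HDAC2 in 6 fits (0.0517 to 0.122). In DU145, 1 rose and 1 fell with gRNA 2 and 2 rose and 1 fell with gRNA 10, and HDAC2 was higher (0.54 and 0.47). In PC3, 4 rose and 4 fell, and 5 rose and 2 fell, with ARID4B up (0.68 and 1.06) and its paralog ARID4A down (−0.17 and −0.65, the first lost without the third control library at 0.0655). The histone chaperone RBBP4 rose there too (0.46 and 0.77).

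Of 11 MYC cofactors, 4 rose and 1 fell with each guide in 22Rv1: the helicase RUVBL1 fell from 348 to 139 and 135 CPM (−1.32 and −1.37), while EP400, the ATPase of the same TIP60 complex, rose from 94.6 to 137 and 185 (0.54 and 0.97). TRRAP, the scaffold through which MYC recruits histone acetyltransferases, fell in DU145 from 146 to 96.3 and 93.7 CPM (−0.60 and −0.64), where 2 rose and 2 fell with gRNA 2 and 1 rose and 2 fell with gRNA 10. In PC3, 1 of 10 rose and 1 fell with gRNA 2 and 1 rose and 4 fell with gRNA 10, with the MYC partner ZBTB17 (MIZ-1) up (0.50 and 0.30) and the acetyltransferase KAT5 down (−0.24 and −0.61).

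Of 12 genes for MYC protein turnover, 1 rose and 5 fell with gRNA 1 and 0 rose and 3 fell with gRNA 10 in 22Rv1. These included CIP2A, which protects MYC from the phosphatase PP2A, at 71.2, 28.1 and 32.0 CPM (−1.34 and −1.15), and GSK3B, the kinase that marks MYC for degradation, at 227, 115 and 143 (−0.99 and −0.67). In DU145, 1 rose and 1 fell, and 4 rose and 2 fell. In PC3, 3 rose and 5 fell with each guide: the mitotic kinase AURKA rose from 48.3 to 66.5 and 163 CPM (0.46 and 1.76), and the kinase PIM1 (−0.66 and −0.87) and the ubiquitin ligase subunit FBXW7 (−0.28 and −0.49) fell.

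Among the 8 PRC1.6 partners of MGA, 1 rose and 1 fell, and 2 rose and 0 fell, in 22Rv1; 1 rose and 1 fell with each guide in DU145; and 4 rose and 1 fell, and 2 rose and 2 fell, in PC3. The ubiquitin ligase RNF2 rose there from 6.55 to 11.7 and 11.4 CPM (0.84 and 0.80). Of 10 germline genes that MGA is known to repress, 4 could be tested in 22Rv1, where none rose and 2 and 3 fell, and 3 in DU145 and PC3, where none fell and 1 and 1, and 1 and 2, rose. The shares of all genes given for the machinery apply to these counts too. MEIOC, a meiotic gene, was at 28.3, 7.30 and 13.5 CPM in 22Rv1 (−1.95 and −1.07) and 30.2, 43.4 and 57.8 in DU145 (0.52 and 0.94). In PC3 it was below 1 CPM in every group mean, and its calls as higher were lost with DESeq2 (0.116 and 0.101). TDRKH, which acts on piRNAs, fell in 22Rv1 (−0.45 and −0.48), calls that were lost in 6 fits without 1 library for each guide (0.056 to 0.111 and 0.0572 to 0.123). Without the third gRNA 1 library the first was −0.27.

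The genes whose level moved most like MYC were sought among 4755 genes of mean log2 CPM of at least 5 in every line, by Pearson's r over the 27 libraries after each line's mean was subtracted. The 5 highest were HK2 (r = 0.957), SMURF2, a ubiquitin ligase (0.936), RPL12, a ribosomal protein gene whose pseudogene copies make its count uncertain (0.934), SNHG16 (0.927) and DANCR (0.915), both long noncoding host genes of small nucleolar RNAs. Over 28 alternatives r for HK2 stayed between 0.950 and 0.964. The 27 values share their line's mean, their controls and their libraries, so r is given as a description. Within the network r with MYC was highest for MAX (0.77), MLXIP (0.56), MXI1 (0.38) and MXD1 (0.25), lay between −0.26 and 0.04 for MNT, MGA, MLX, MXD3, MXD4 and MLXIPL, and was −0.57 for MYCL. These pooled values hide the lines: MYCL was called lower with gRNA 1 in 22Rv1, as MYC was, and MAX was called higher and MYC lower with gRNA 2 in PC3.

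**Figure D4:**
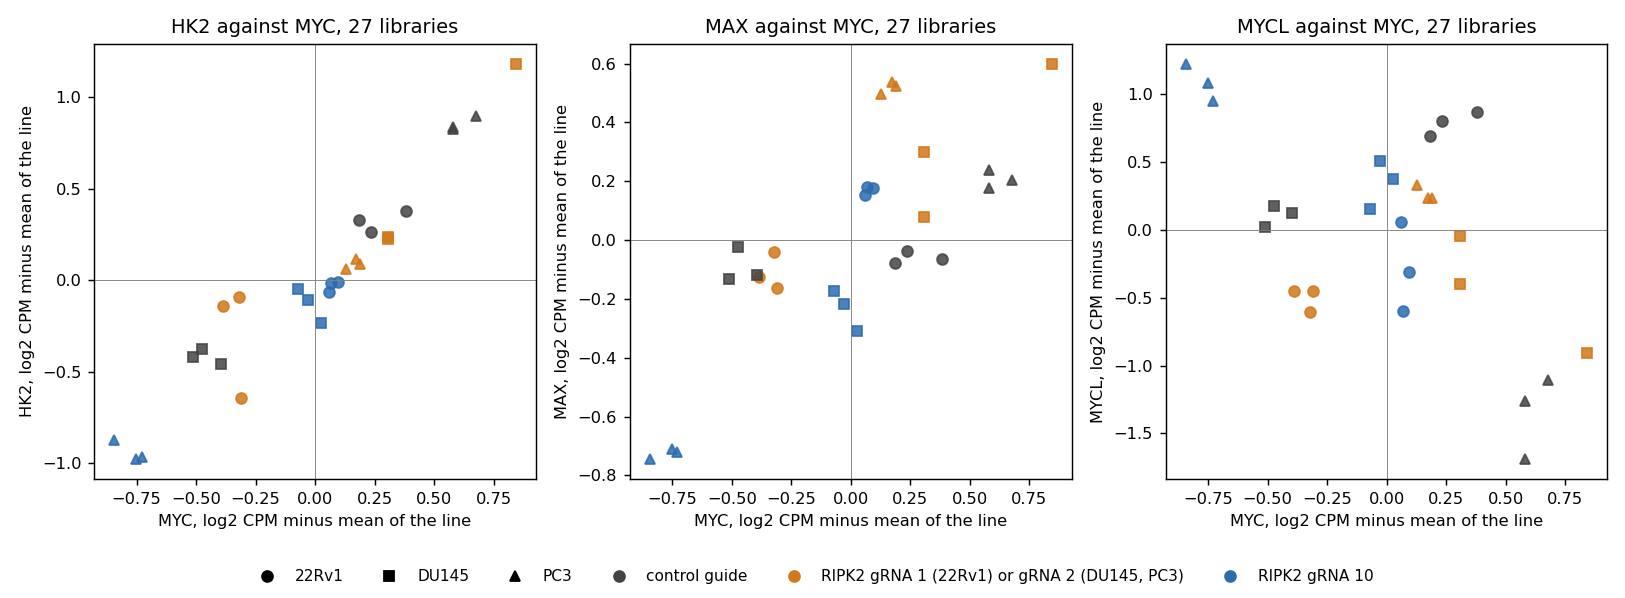
Level of HK2, MAX and MYCL (y axes) against MYC (x axis) in the 27 libraries. Each level is log2 CPM minus the mean of its line. Colours mark the control, the first knockout guide and the other knockout guide of each line, and marker shapes mark the lines. HK2 is higher where MYC is higher (r = 0.957), and the pooled r is 0.77 for MAX and −0.57 for MYCL; MYCL is lower along with MYC with gRNA 1 in 22Rv1, and MAX is higher where MYC is lower with gRNA 2 in PC3.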

How the data were processed

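Bulk RNA was measured in 27 libraries of 9 groups. Per the labels' protocols, total RNA was used for strand-specific mRNA libraries, sequenced from both ends for 150 bases (DNBSEQ). The authors deposited a table of raw read counts per line, per the file headers. FastQC, STAR, edgeR and hg38 are named in the submitters' processing notes; the counting program, annotation, strand setting and filters are not given in the sources used here. The tables held 24385, 23534 and 23464 rows, and repeated symbols (6, 2 and 2) were summed.

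Each line was fitted with edgeR 4.0.16 (R 4.3.3): filterByExpr (minimum count 10, minimum total 15), TMM scaling, group as the only term, and the robust, two-sided quasi-likelihood F test. This tested 15198, 14908 and 14718 genes. A gene was called at a Benjamini-Hochberg adjusted p below 0.05 over all genes tested. Lines were compared in 1 model of all libraries for 16322 genes. Standard errors were derived from the F statistic. RPKM used exon unions of GENCODE 29 and joint TMM scaling. The spread between replicate libraries was estimated in the fit. Reads carry no molecular identifiers, so duplicate reads cannot be told from separate molecules.

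The text names all 10 members, RIPK2, MAX, MLXIP and MLXIPL, up to 4 genes per other list and line (the 2 rises and 2 falls with the largest smaller change among those called with both guides), and the 5 genes most like MYC. The members, lists and tests were chosen with earlier results of these data known. The procedure was tested on simulated data. Alternatives were RLE factors, DESeq2 1.42.0, other filters, only the libraries compared, a replicate block, and leaving out libraries. Same-numbered libraries correlated above 0.1 in 1, 0 and 0 of 9 pairs, so replicate numbers were not treated as pairs.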

Additional observations from a re-analysis of the deposited data

Results flagged for a closer look

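The following results were flagged because a guide's log2 change differed between 2 lines in the edgeR model of all 27 libraries (adjusted p below 0.05 over 16322 genes); a positive value means a higher change in the line named first. For gRNA 10 in 22Rv1 against DU145 the difference was −0.62 for MYC, −1.31 for MYCL, −0.82 for MXD3, −0.65 for MXD4, −0.71 for MXI1 and 0.38 for MAX. For gRNA 10 in 22Rv1 against PC3 it was 1.23 for MYC, −3.54 for MYCL, −0.52 for MXD3, −0.41 for MXI1, −0.37 for MLX and 1.20 for MAX. For gRNA 10 in DU145 against PC3 it was 1.85 for MYC, −2.24 for MYCL and 0.82 for MAX. For gRNA 2 in DU145 against PC3 it was 1.43 for MYC, −2.19 for MYCL, 0.99 for MXD1, 1.20 for MXI1 and 0.38 for MLX. Without both libraries that stand apart, MYC gave −0.63, 1.21, 1.84 and 1.22 in these 4 comparisons, and all 4 passed. The remaining RIPK2 mRNA differed between these groups, at 32.2%, 81.9% and 45.1% of control with gRNA 10 in 22Rv1, DU145 and PC3; its part in the differences was not tested.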

How the results depend on the processing

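Over the members' log2 changes, 3268 values computed under an alternative kept their sign and their side of the threshold, 66 newly passed it, 31 no longer did and 34 turned sign. Fitting only the libraries compared gave 3335 genes called for gRNA 2 and 9749 for gRNA 10 in DU145 (5072 and 5956 with all 9 libraries), and 5 members for the effect of gRNA 10 between DU145 and PC3. With both libraries that stand apart left out, an alternative added after seeing the data, that count was 4, and for the effect of gRNA 2 between DU145 and PC3 it was 8. The share of all genes called without these libraries is not given here. Leaving out 1 library gave 4 to 8 members called for gRNA 10 in 22Rv1 and 3 to 6 between the guides of 22Rv1. It gave 1 to 3 for gRNA 10 in DU145 and 3 to 6 between the guides of DU145. With all libraries, 40.6%, 35.6%, 40% and 38.8% of all genes were called in these comparisons. Shares from the reduced fits are not given here, so these ranges of members have no background beside them. Genes called for gRNA 2 in DU145 numbered 3259 to 6957 with 1 library left out. The cause was not tested, but 8 and 6957 came from the fits without the third libraries named in the report.

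Signs that turned outside leave-one-out fits were those of MNT with gRNA 2 (0.0018) and MLXIP with gRNA 10 (−0.0061) in DU145 without a filter on low counts, of MXD4 with gRNA 10 in PC3 with RLE factors (−0.0030), DESeq2 (−0.0030), no filter (−0.0063) or only the libraries compared (−0.0067), and of MAX for gRNA 2 between DU145 and PC3 without both libraries (−0.021). With 1 library left out, log2 values with gRNA 1 in 22Rv1 ran from −0.16 to 0.20 for MXD3, −0.21 to 0.0054 for MXD4 and −0.053 to 0.96 for MLXIPL, and with gRNA 10 from −0.028 to 0.085 for MXD1. Between the guides of 22Rv1 they ran from −0.23 to 0.0093 for MXI1, −0.021 to 0.12 for MLX and −0.56 to 0.46 for MLXIPL, whose lowest value passed (adjusted p = 0.0151, without the third gRNA 1 library). In DU145 they ran with gRNA 2 from −0.42 to 0.029 for MXD4, −0.092 to 0.13 for MNT and −0.020 to 0.068 for MLXIP, with gRNA 10 from −0.021 to 0.099 for MGA and −0.030 to 0.047 for MLXIP, and between the guides from −0.036 to 0.067 for MLXIP. In PC3 they ran from −0.053 to 0.047 for MXD4 with gRNA 10, and between the guides from −0.050 to 0.026 for MNT and −0.11 to 0.024 for MGA. Between lines they ran from −0.10 to 0.025 for MNT (gRNA 10, 22Rv1 and DU145), −0.16 to 0.0015 for MXD1 (gRNA 10, DU145 and PC3), and −0.0998 to 0.35 for MXD4 and −0.022 to 0.25 for MAX (gRNA 2, DU145 and PC3).

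Libraries share only a replicate number, taken here from the sample titles. With the replicate block the members called were unchanged in number within every line, with 7399 and 6252 genes called in 22Rv1, 4476 and 5401 in DU145 and 9509 and 10931 in PC3; MYCL between the controls of 22Rv1 and DU145 turned to 0.018, and the counts rose to 8 between those controls and to 6 for gRNA 10 between 22Rv1 and PC3. Depth limits MYCN and the MYCL of PC3 most.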
